A study of Sus scrofa with 23 samples.

Results

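Solute carriers are the membrane proteins of the SLC gene families that move sugars, amino acids, lactate, metals, ions and cofactors across the plasma membrane and into organelles. In skeletal muscle they include the insulin-responsive glucose transporter, the monocarboxylate transporter through which lactate enters and leaves fibres, and the inner mitochondrial membrane carriers that exchange phosphate and adenine nucleotides. Many act together with partners, such as the heavy chain that takes amino acid carriers to the cell surface or the chaperone that does so for monocarboxylate transporters. The set held every gene whose symbol on the array, or in parentheses in the probe's description, was SLC followed by a number. It counted 94 of the 4862 genes with a symbol on the array, read by 187 of its 43603 different non-control probes. By substrate, 6 genes belonged to the glucose family SLC2, 13 to the amino acid families SLC1, SLC3, SLC7 and SLC38, 4 to the monocarboxylate family SLC16, 6 to the mitochondrial family SLC25, 13 to the zinc families SLC30 and SLC39, and 52 to other families.

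The study measured Longissimus muscle, a back muscle made mostly of fast fibres, in pigs of 115 kg body weight that differed in residual feed intake (RFI), the feed eaten beyond what maintenance and growth predict. RFIneg pigs had low RFI and ate freely (7 pigs). RFIpl pigs had high RFI and also ate freely (8 pigs), and RFIplR pigs were high-RFI animals held to the feeding level of the low-RFI pigs (8 pigs). Thus RFIneg against RFIpl compared the lines under free feeding, RFIplR against RFIpl compared restricted with free feeding within high RFI, and RFIneg against RFIplR compared the lines at a like feeding level. Each pig had its own single-colour array, and sex and age are not given in the sources used here.

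All values below are log2 signals relative to the 75th percentile of the same array, so that 0 is the level of that percentile, and a difference of 1 is a doubling. A gene is described by its brightest measured probe unless its probes are described one by one, and levels of different probes are not compared. The 23 arrays lay on 6 slides that each held all 3 groups, and were scanned on 2 days. A slide held 3 or 4 arrays, so a group's mean on a slide was mostly a single pig. Differences within a scan day also rest on few pigs of a group and are given without an interval. The share of spots well above background ran from 41.6% to 79.0%, with group medians of 69.3%, 67.9% and 67.3% in RFIneg, RFIpl and RFIplR, and with a median of 50.1% on slide 3. Of 10 listed muscle fibre genes, the 9 on the array were all measured, and all 9 stood higher in RFIneg than in RFIpl with a median difference of 0.16, although 2 of the 9 stood lower after quantile normalization (median 0.01) and all 9 after plain normexp (median -0.08), an alternative background correction that compressed the signal range of 5 arrays. Of 11 adipocyte genes 10 were measured (PLIN1 was not), and all 10 stood lower in RFIneg than in RFIpl with a median difference of -0.49, 9 of them also after plain normexp. Of both lists, 0 genes passed the threshold described below (limma), and at an unadjusted p under 0.05 the counts were 0 and 2. Of all probes tested for RFIneg against RFIpl, 11.1% had an unadjusted p under 0.05, 55.3% stood higher and 44.7% lower. The summed level of the adipocyte genes relative to the 75th percentile ran from 54.1 to 112 in RFIneg, from 62.2 to 245 in RFIpl and from 51.4 to 153 in RFIplR. In RFIneg against RFIplR, 9 of the 10 adipocyte genes stood lower (median -0.41) and all 9 muscle fibre genes higher (median 0.08), of which 6 stood lower after quantile normalization (median -0.02). Of 11 measured leukocyte genes 10 stood lower in RFIneg than in RFIpl (median -0.19), and of 8 fibroblast genes 5 did (median -0.13), against 9 and 4 after plain normexp. In RFIplR against RFIpl, 9 of the 11 leukocyte genes (median -0.24) and 7 of the 8 fibroblast genes (median -0.27) stood lower. In that comparison 8 of the 9 muscle fibre genes stood higher (median 0.07), and the adipocyte genes split 5 to 5 (median -0.01). The part of these markers in any difference below was not tested, and in whole tissue fewer cells of a type cannot be told apart from less RNA per cell.

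Of the 94 genes, 72 had a probe that reached 6 or more arrays of a group with a signal well above background, and 46 of the 72 had it on all 23 arrays. The 22 genes below that limit included carriers known from other organs. SLC2A2, the glucose transporter of liver and pancreatic islets, SLC30A8, the zinc transporter of islet cells, and SLC10A1, the bile acid importer of hepatocytes, were well above background on 0 arrays. SLC7A3, SLC18A1 and SLC24A4 were likewise above background on 0 arrays. SLC16A3, the monocarboxylate transporter of glycolytic fibres, had a single probe that was well above background on 7 arrays. These probes set no level for the transcripts. SLC9A3R1 and SLC9A3R2 meet the naming rule, but they are scaffold proteins that bind an exchanger and carry no solute.

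No solute carrier gene passed the threshold (limma, Benjamini-Hochberg adjusted p under 0.05 over all 27785 probes tested) in any of the 3 comparisons or in the F test over the groups. Of all probes tested, 0.122% passed for RFIneg against RFIpl, 0.0036% for RFIplR against RFIpl, 0.162% for RFIneg against RFIplR and 0.137% in the F test. At an unadjusted p under 0.05, 3 of the 72 genes counted in each comparison. Over the 137 measured member probes, the unadjusted count was 10 (7.3%) for RFIneg against RFIpl, against 11.1% of all probes tested. It was 6 (4.38%) against 9.76% for RFIplR against RFIpl, and 13 (9.49%) against 10.2% for RFIneg against RFIplR. The member shares over both directions thus lay near or below the background of the array. By direction, 9 member probes (6.57%) stood lower in RFIneg than in RFIpl at that level against 3.91% of all probes, and 1 (0.73%) stood higher against 7.2%. For RFIplR against RFIpl, 5 (3.65%) stood lower against 4.81% and 1 higher against 4.95%. For RFIneg against RFIplR, 12 (8.76%) stood lower against 4.61% and 1 higher against 5.57%. These probes belonged to few genes, since 5 of the 9 were SLC16A1 probes, and 7 of the 12 were SLC25A3 and 3 were SLC16A1 probes. No member probe had group values that did not overlap, where 0.353%, 0.0792% and 0.227% of all probes did in the 3 comparisons.

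The median difference over the 72 genes was 0.02 for RFIneg against RFIpl (41 genes higher, 31 lower), 0.02 for RFIplR against RFIpl (38 higher, 34 lower) and 0.04 for RFIneg against RFIplR (44 higher, 28 lower). Over all probes tested the medians were 0.02, 0.01 and 0.02, with 55.3%, 53.1% and 54.7% above 0 and 44.7%, 46.9% and 45.3% below 0. The amino acid carriers had medians of -0.11, -0.06 and -0.19 in the same order, and the widest range of any named substrate group, from -0.56 to 0.90 in the last of them. The SLC16 genes had medians of -0.14, -0.01 and -0.13, and the SLC25 genes of 0.04, 0.10 and 0.09. The glucose (-0.02, 0.02 and 0.03) and zinc (0.01, 0.01 and 0.06) medians lay closer to 0. For RFIplR against RFIpl the zinc genes (-0.16 to 0.63) and the other families (-0.55 to 0.50) had wider ranges than the amino acid carriers (-0.42 to 0.34), as the plot of differences by substrate group shows.

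**Figure D1:**
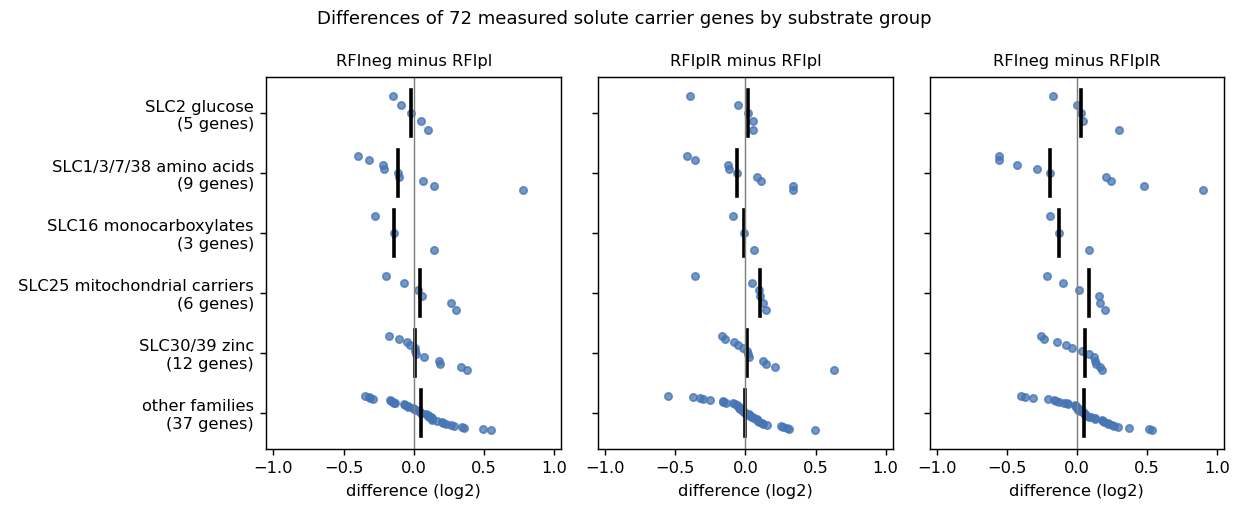
Difference (log2) of each of the 72 measured solute carrier genes, one point per gene, in rows by substrate group and in 3 panels by comparison, with the median of each row as a black bar. Medians lie between -0.19 and 0.10, and the point farthest to the right is SLC7A2 at 0.78 in the left panel and 0.90 in the right panel.

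Among the amino acid carriers, SLC7A2, which imports arginine, lysine and ornithine, had the smallest p of the whole set. In RFIneg pigs its lowest, median and highest values were 2.81, 3.34 and 3.83. In RFIpl pigs they were 2.08, 2.55 and 3.50, and in RFIplR pigs 1.69, 2.56 and 2.82. The lowest RFIneg pig lay just under the highest RFIplR pig, and 1 RFIpl pig (replicate 3, at 3.50) lay within the range of the RFIneg group, while the other RFIpl pigs were at or below 2.70. The means were 3.36 ± 0.39 (SD, n = 7), 2.59 ± 0.42 (SD, n = 8) and 2.46 ± 0.34 (SD, n = 8). The level was 1.71-fold higher in RFIneg than in RFIpl, a log2 difference of 0.78 with a 95% interval of 0.38 to 1.17 and an adjusted p of 0.125. Against RFIplR it was 1.86-fold higher, a difference of 0.90 (0.50 to 1.30) with an adjusted p of 0.0552. Restricted and freely fed high-RFI pigs differed by -0.12 (-0.51 to 0.26), with an adjusted p of 0.911, and the F test over the groups gave 0.0676.

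The SLC7A2 result thus lay near the threshold, and leaving out either of 2 pigs took it past. Without RFIpl replicate 3 the adjusted p was 0.0254 for RFIneg against RFIpl, 0.0260 for RFIneg against RFIplR and 0.0223 in the F test. Without RFIneg replicate 4 it was 0.0407 for RFIneg against RFIplR. Leaving out other pigs kept it above the threshold. Over every pig left out in turn, it ran from 0.0254 to 0.2565 for RFIneg against RFIpl. For RFIneg against RFIplR it ran from 0.0260 to 0.146. With slide as a block the differences were 0.76 (0.33 to 1.19, adjusted p 0.177) and 0.87 (0.44 to 1.29, adjusted p 0.107). Among arrays of the first scan day the differences were 1.11 and 1.19, and among those of the second 0.36 and 0.52, so the direction was that of the pooled values on both days and the size was not. RFIneg means, mostly of a single pig, were above RFIpl means on 5 of 6 slides and above RFIplR means on 6 of 6. The gene has a single probe on this array, from a RefSeq transcript, whose first 30 bases (here without capitals, since no part is set apart) are shown to identify what was measured.
SLC7A2: ttggatagggagatcccaagcctccatgtt

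SLC1A5, which exchanges neutral amino acids including glutamine, had its lowest, median and highest values at 1.40, 1.80 and 1.98 in RFIneg, at 1.64, 2.05 and 2.85 in RFIpl and at 1.57, 1.88 and 2.95 in RFIplR. The groups overlapped, and the 3 highest pigs were high-RFI animals. The difference between RFIneg and RFIpl was -0.40 (-0.77 to -0.03; p 0.0345, adjusted p 0.405), and a second probe, which shares 40 bases with the first, gave -0.42 (p 0.0209). With slide as a block it was -0.41, and on scan days 1 and 2 it was -0.61 and -0.17. Against RFIplR the difference was -0.29 (-0.65 to 0.08), and 0.03 after plain normexp.

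SLC7A1, the general transporter of cationic amino acids, and SLC3A2, the heavy chain that brings several SLC7 light chains to the cell surface, varied far more between pigs of a group. SLC7A1 ran from -0.18 to 1.52 in RFIneg (median 0.46), from -0.02 to 1.64 in RFIpl (0.42) and from 0.07 to 1.80 in RFIplR (0.97). SLC3A2 ran from 1.37 to 3.13 in RFIneg (median 2.11), from 1.28 to 3.62 in RFIpl (2.58) and from 2.37 to 3.42 in RFIplR (2.75). The groups overlapped widely for both genes. RFIneg differed from RFIplR by -0.55 (-1.16 to 0.06; adjusted p 0.534) for SLC7A1 and by -0.56 (-1.21 to 0.10; adjusted p 0.562) for SLC3A2. For SLC7A1 this difference was -1.32 on scan day 1 and 0.28 on scan day 2, so its direction did not hold across days. Each day held few pigs of a group. The dimmer SLC3A2 probe did not follow the brighter one, as it stood at -0.30 for RFIplR against RFIpl where the brighter probe stood at 0.34 (-0.27 after plain normexp).

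**Figure D2:**
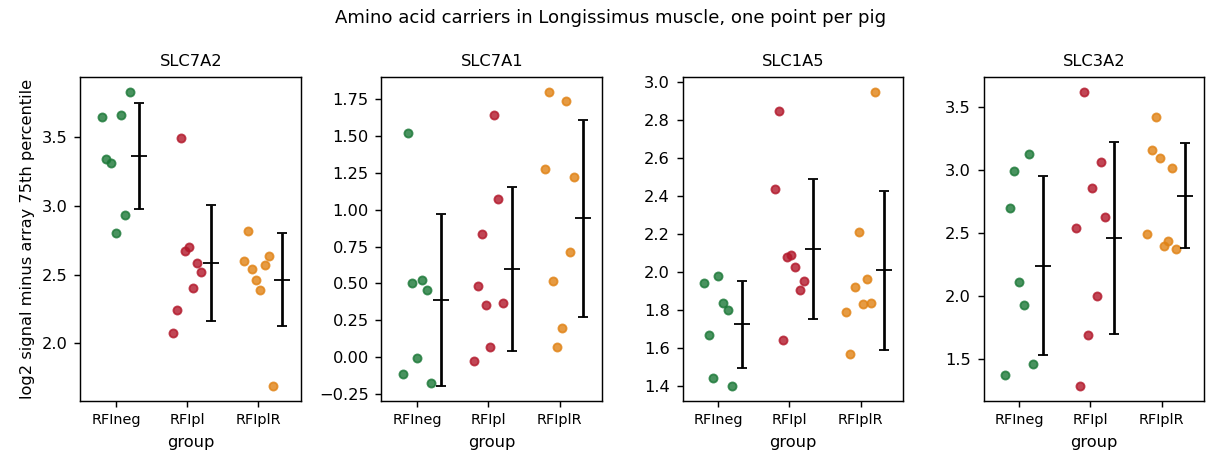
Log2 signal relative to the array's 75th percentile (vertical axis, own scale per panel) of SLC7A2, SLC7A1, SLC1A5 and SLC3A2 in each pig by group, with the group mean and SD in black to the right of the points. SLC7A2 means are 3.36, 2.59 and 2.46 in RFIneg, RFIpl and RFIplR, with RFIpl replicate 3 at 3.50 and RFIplR replicate 8 at 1.69 apart from their groups.

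The other measured amino acid carriers showed no difference at an unadjusted p under 0.05. The sodium-coupled neutral carrier SLC38A4 stood at -0.32 (-0.93 to 0.30) for RFIneg against RFIpl and at -0.43 (-1.04 to 0.19) for RFIneg against RFIplR. Its relative SLC38A1 stood at 0.06 and 0.48, and at -0.42 (-0.97 to 0.14) for RFIplR against RFIpl, with -0.37 in place of 0.48 and 0.61 in place of -0.42 after plain normexp. SLC7A7, the light chain that exchanges cationic for neutral amino acids, stood at -0.36 (-0.79 to 0.07) for RFIplR against RFIpl, while its 2 dimmer probes stood at 0.16 and -0.19, and the brightest at 0.18 after plain normexp. SLC38A3, a glutamine carrier, stood at -0.11 for RFIneg against RFIpl and at 0.08 for RFIplR against RFIpl (-0.12 after plain normexp for the latter). Its 3 probes are described as another member of the family, and so its identity is uncertain. Of 17 listed non-carrier genes of amino acid sensing, 4 were measured, and they differed between RFIneg and RFIpl by a median of 0.03 with 0 past the threshold.

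Across the 23 pigs, SLC7A2 and SLC1A5 varied in opposite directions. Correlations were computed for all 36 pairs of the 9 measured amino acid carriers. The pair of SLC7A2 and SLC1A5 had a Pearson r of -0.742 (permutation p 6e-05, adjusted p 0.00216 over the 36 pairs) and a Spearman rho of -0.699 (p 0.0003, adjusted p 0.0108). Without the 2 pigs farthest from the median of SLC1A5, r was -0.677. Within RFIneg, RFIpl and RFIplR, r was -0.402, -0.755 and -0.951, and without RFIplR replicate 8, which was the highest for SLC1A5 and the lowest for SLC7A2, it was -0.704 within RFIplR and -0.666 over 22 pigs. On scan days 1 and 2, r was -0.760 and -0.808, and after group and slide means were removed it was -0.738. The second SLC1A5 probe gave -0.745. The correlation was -0.632 with median centring, -0.674 after quantile normalization and -0.756 on the deposited values, was -0.729 after normexp fitted on the negative control spots, and was 0.432 after plain normexp. No other pair that included SLC7A2 passed, and their r ran from -0.193 to 0.144.

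Cell type markers moved with this pair. SLC1A5 correlated with the summed adipocyte markers (log2) at r 0.713 (rho 0.419) and with the summed muscle fibre markers at -0.663 (rho -0.614), where the 12 relations of the 2 genes with 6 marker lists gave adjusted permutation p of 0.00372 for both r, and of 0.0969 and 0.0217 for the rho. For SLC7A2 the same r were -0.466 (rho -0.509) and 0.564 (rho 0.538), with adjusted p of 0.0423 and 0.0161. SLC1A5 also correlated with the leukocyte, fibroblast and endothelial sums (r 0.592, 0.549 and 0.485), for which the r of SLC7A2 were -0.276, -0.310 and -0.105. The endothelial relation of SLC1A5 had an adjusted permutation p of 0.0423 for r and of 0.255 for rho (0.296). On scan days 1 and 2 the leukocyte relation of SLC1A5 was 0.842 and -0.0281, and the endothelial one 0.715 and -0.167. After group and slide means were removed, the r of SLC7A2 with the muscle fibre sum was 0.309, and that with the fibroblast sum was -0.624. Without the 2 pigs farthest from the marker median, the r with the adipocyte and muscle fibre sums were 0.514 and -0.722 for SLC1A5, and -0.334 and 0.638 for SLC7A2. The part of these markers in the correlation of the pair was not tested. Among the remaining pairs, 3 had an adjusted p of 0.029 for r, which were SLC3A1 with SLC7A7 (r 0.612), SLC1A5 with SLC7A7 (0.593) and SLC38A1 with SLC7A7 (0.590), and none of the 3 passed by rho (adjusted p 0.11 to 0.197).

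**Figure D3:**
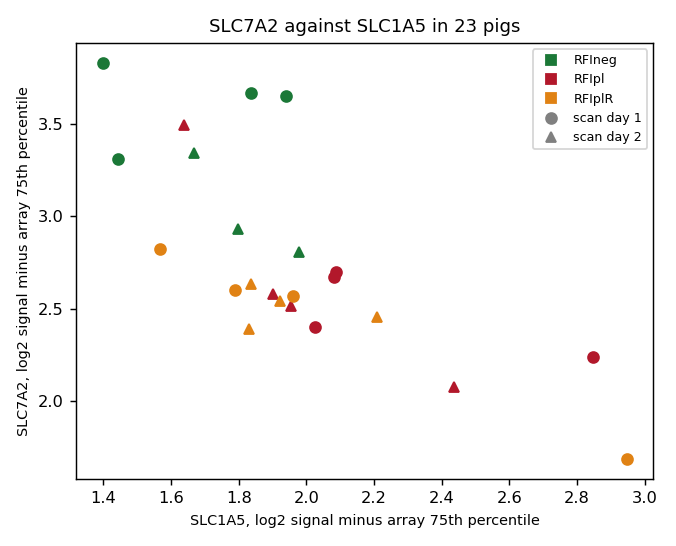
SLC7A2 (vertical) against SLC1A5 (horizontal), both as log2 signal relative to the array's 75th percentile, one point per pig, coloured by group, with circles for scan day 1 and triangles for scan day 2. The points fall from upper left to lower right over the 23 pigs (r -0.742), with the point at the lower right being RFIplR replicate 8.

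SLC16A1, the monocarboxylate transporter that moves lactate, pyruvate and ketone bodies with a proton, stood lower in RFIneg than in RFIpl on all 7 of its probes, with differences from -0.25 to -0.48. The 3 RefSeq probes are shown whole, with no capitals, because they share no run of 16 bases and gave the larger differences.
SLC16A1 RefSeq probe 1: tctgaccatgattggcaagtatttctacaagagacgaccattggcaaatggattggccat
SLC16A1 RefSeq probe 2: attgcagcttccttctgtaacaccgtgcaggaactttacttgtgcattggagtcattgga
SLC16A1 RefSeq probe 3: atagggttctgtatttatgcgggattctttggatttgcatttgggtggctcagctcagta

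On RefSeq probe 1 the lowest, median and highest values were -0.96, -0.81 and -0.64 in RFIneg, -0.76, -0.21 and -0.04 in RFIpl and -0.90, -0.52 and 0.00 in RFIplR. The RFIneg pigs thus formed a narrow range at the low end of both high-RFI groups and overlapped with each. The differences between RFIneg and RFIpl were -0.48 (-0.75 to -0.21; p 0.00119, adjusted p 0.162), -0.43 (-0.70 to -0.17; p 0.00247, adjusted p 0.209) and -0.44 (-0.76 to -0.11; p 0.0106, adjusted p 0.288) on probes 1, 2 and 3. The other 4 probes come from cDNA or EST sequences, 3 of them overlapping, and stood between -0.25 and -0.32 with p of 0.0252 to 0.0628. On the brightest of these the values were 0.65, 0.72 and 1.08 in RFIneg, 0.59, 1.21 and 1.40 in RFIpl and 0.80, 1.0 and 1.34 in RFIplR, and the difference was -0.28 (-0.51 to -0.04; adjusted p 0.364). With slide as a block the brightest probe stood at -0.29, and on scan days 1 and 2 at -0.32 and -0.25. RFIneg against RFIplR gave -0.19 to -0.33 over the 7 probes (0.00 on the brightest after plain normexp), and RFIplR against RFIpl gave -0.18 to 0.08.

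The probes of one gene are repeated readings of the same RNA and do not add pigs, so the 7 values are not 7 results. Of the partners listed for monocarboxylate transport, 4 of 7 were measured and 0 passed the threshold. BSG, the chaperone that carries SLC16A1 to the plasma membrane, stood at -0.35 for RFIneg against RFIpl (p 0.0142, adjusted p 0.308) and at -0.28 for RFIneg against RFIplR (p 0.0398). LDHA, the muscle form of lactate dehydrogenase, stood at 0.23 for RFIneg against RFIpl (p 0.0204, adjusted p 0.343). Of the other SLC16 genes, SLC16A9 stood at 0.15 (-0.31 to 0.60) and SLC16A12 at -0.14 (-0.66 to 0.38) in the same comparison.

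**Figure D4:**
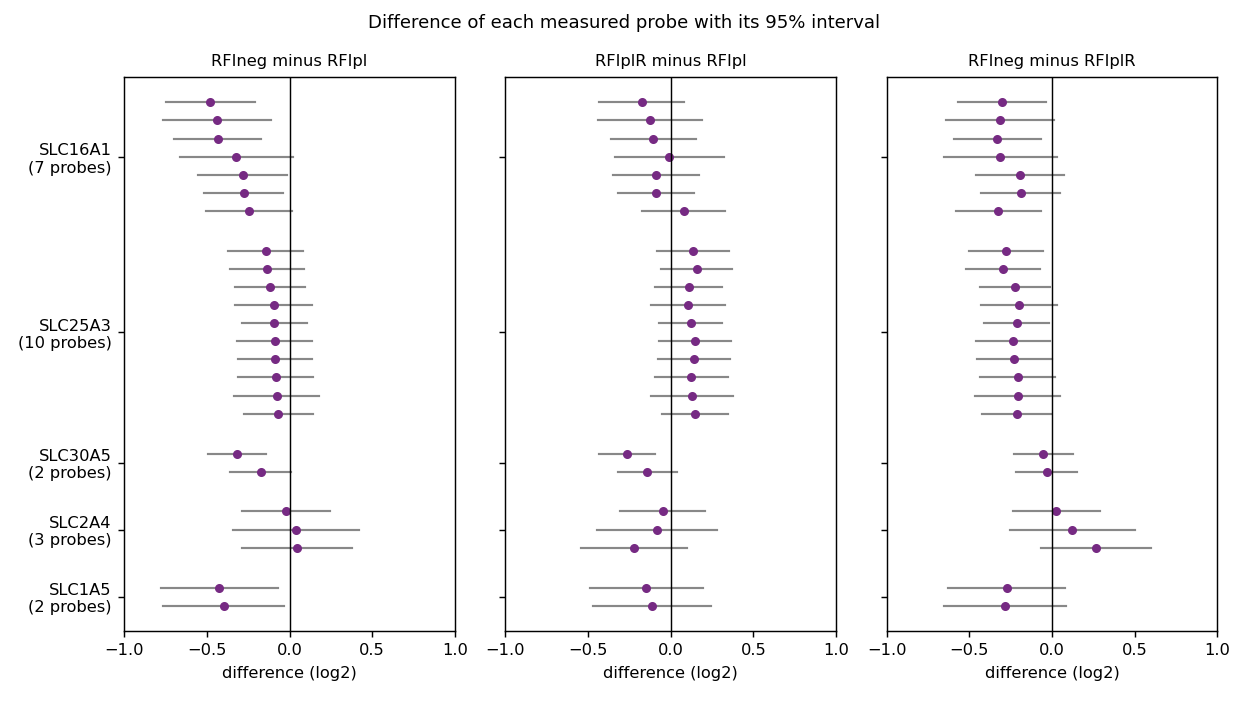
Difference (log2, point) with its 95% interval (line) for every measured probe of SLC16A1, SLC25A3, SLC30A5, SLC2A4 and SLC1A5, one row per probe and one panel per comparison. All 7 SLC16A1 probes lie below 0 in the left and right panels, all 10 SLC25A3 probes lie above 0 in the middle panel and below 0 in the right panel, and the 3 SLC2A4 probes lie on both sides of 0 in the left panel.

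SLC25A3, the mitochondrial phosphate carrier that supplies ATP synthase, was the SLC25 gene with the most probes. On its brightest probe the lowest, median and highest values were 7.38, 7.52 and 7.85 in RFIneg, 7.37, 7.65 and 7.94 in RFIpl and 7.57, 7.78 and 8.02 in RFIplR. The ranges overlapped, with the RFIplR pigs at the upper end. RFIneg differed from RFIplR by -0.21 (-0.42 to -0.01; p 0.044, adjusted p 0.477), and all 10 probes gave -0.20 to -0.29, a direction that turned only after plain normexp (0.37). Over the 10 probes RFIplR stood above RFIpl by 0.10 to 0.16 (-0.66 on the brightest after plain normexp), and RFIneg against RFIpl gave -0.07 to -0.15. Several of these probes overlap. With slide as a block, RFIneg against RFIplR stood at -0.22 with RFIneg lower on 6 of 6 slides, and RFIplR against RFIpl at 0.20 (0.01 to 0.38; adjusted p 0.414) with RFIplR higher on 6 of 6.

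SLC25A27, a brain-rich uncoupling protein homologue, was dim and stood at -0.36 (-0.70 to -0.01; p 0.0464, adjusted p 0.5) for RFIplR against RFIpl, and at 0.43 after plain normexp. SLC25A25, the carrier that exchanges ATP-magnesium for phosphate, stood at 0.30 (-0.29 to 0.90) for RFIneg against RFIpl, with 0.64 and -0.06 on scan days 1 and 2. SLC25A6, an ADP/ATP exchanger, stood at 0.06 (-0.13 to 0.25) in that comparison and at 0.05 and 0.01 in the other two. After plain normexp the first 2 of these were -0.17 and -0.79. Of 16 listed mitochondrial membrane proteins named without an SLC symbol, uncoupling proteins among them, 7 were measured and 0 passed the threshold. Of the 7, 3 stood higher and 4 lower in RFIneg than in RFIpl. UCP3, a muscle uncoupling protein, stood at 0.92 (p 0.00936, adjusted p 0.279) for RFIneg against RFIpl and at 0.78 (p 0.0211, adjusted p 0.397) for RFIplR against RFIpl. VDAC2, an outer membrane channel, stood at -0.27 (p 0.0199, adjusted p 0.340) for RFIneg against RFIpl and at -0.28 (p 0.0167, adjusted p 0.376) for RFIneg against RFIplR.

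Among the zinc transporters, SLC30A5, which loads zinc into the secretory pathway together with SLC30A6, stood lower in both RFIneg and RFIplR than in RFIpl on both of its probes. The probes are given, with no capitals, because they share no run of 16 bases and differed in the size of the difference.
SLC30A5 brighter probe: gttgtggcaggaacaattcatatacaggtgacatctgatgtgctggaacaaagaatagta
SLC30A5 dimmer probe: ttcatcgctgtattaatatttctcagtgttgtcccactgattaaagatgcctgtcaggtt

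On the brighter probe the lowest, median and highest values were -0.25, 0.25 and 0.33 in RFIneg, 0.10, 0.32 and 0.52 in RFIpl and 0.04, 0.16 and 0.36 in RFIplR. On the dimmer probe they were -0.97, -0.69 and -0.36, then -0.55, -0.32 and -0.18, and then -0.79, -0.59 and -0.40. The groups overlapped on both. RFIneg against RFIpl gave -0.17 (p 0.0647) on the brighter and -0.32 (-0.50 to -0.14; p 0.00116, adjusted p 0.162) on the dimmer probe. RFIplR against RFIpl gave -0.14 (p 0.115) and -0.26 (p 0.00402, adjusted p 0.232), and RFIneg against RFIplR gave -0.03 and -0.05. Both comparisons share the RFIpl pigs. On scan days 1 and 2 the brighter probe stood at -0.38 and 0.08 for RFIneg against RFIpl, so its direction did not hold on the second day.

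**Figure D5:**
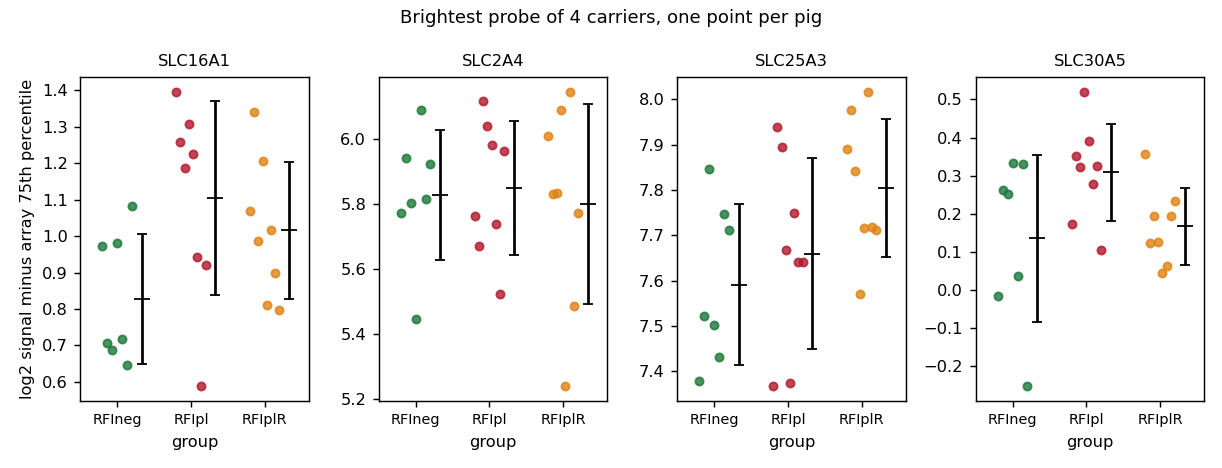
Log2 signal relative to the array's 75th percentile (vertical axis, own scale per panel) of the brightest probe of SLC16A1, SLC2A4, SLC25A3 and SLC30A5 in each pig by group, with group mean and SD in black. SLC16A1 means are 0.83, 1.10 and 1.02 and SLC2A4 means are 5.83, 5.85 and 5.80 in RFIneg, RFIpl and RFIplR, and every panel shows overlapping groups.

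SLC30A2, which moves zinc into vesicles, was dim and was well above background on 18 of 23 arrays. Its lowest, median and highest values were -4.38, -3.13 and -2.59 in RFIneg, -4.49, -3.63 and -2.75 in RFIpl and -3.79, -3.23 and -2.04 in RFIplR. RFIplR stood above RFIpl by 0.63 (0.08 to 1.19; p 0.0274, adjusted p 0.426), with 0.75 and 0.51 on scan days 1 and 2. SLC30A6, the partner of SLC30A5, stood at 0.15 (-0.02 to 0.31) for RFIplR against RFIpl, and SLC30A7, another Golgi zinc importer, at -0.16 (-0.37 to 0.04). SLC30A1, which exports zinc from the cell, stood at 0.18 (-0.10 to 0.47) and SLC39A1, a zinc importer, at 0.34 (-0.09 to 0.76) for RFIneg against RFIpl. SLC39A7, which releases zinc from the endoplasmic reticulum, stood at 0.01 (-0.17 to 0.18) for RFIneg against RFIpl on its brightest probe and at -0.36 (-0.71 to -0.01; p 0.0457, adjusted p 0.441) on the dimmest of 4. Its brightest probe stood at -0.07 in that comparison after plain normexp. Of 4 listed zinc buffering genes, MT1A and MT3 were measured, and neither passed.

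SLC39A14, an importer of zinc and iron, and SLC2A11, a member of the glucose family, each had 2 measured probes. The brightest probes of both genes hold the same run of 16 bases, shown here in capitals within 30 bases of each.
SLC2A11: gaacccaACTAGTATCCATGAGGatgtggg
SLC39A14: gaacctgACTAGTATCCATGAGGttgtgga

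That run occurs on either strand in 7 of the 43603 probes (0.0161%), 6 in sense and 1 reversed. All 7 were measured and 6 were well above background on all 23 arrays, as were 40.1% of all probes. Their median SD within groups was 0.12 against 0.30 over all probes measured. The SLC2A11 probe with the run had group means of 7.05 ± 0.03, 6.95 ± 0.19 and 7.01 ± 0.07, and the probe without it had -2.95 ± 0.82, -3.42 ± 0.40 and -3.45 ± 0.61 (SD; n = 7, 8 and 8). Which RNA the probes with the run read was not tested, and the glucose and zinc medians above include them. By contrast, 166 of the 187 member probes share no 16-base run with a probe of another gene.

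SLC2A4, the insulin-responsive glucose transporter of muscle and fat, had a brightest probe with lowest, median and highest values of 5.45, 5.82 and 6.09 in RFIneg, 5.52, 5.86 and 6.12 in RFIpl and 5.24, 5.83 and 6.15 in RFIplR. The 3 groups covered almost the same range. RFIneg against RFIpl stood at -0.02 (-0.29 to 0.24), RFIplR against RFIpl at -0.05 (-0.30 to 0.21) and RFIneg against RFIplR at 0.03 (-0.24 to 0.29). These intervals do not show that the groups were alike, and each of these signs turned under some alternatives. After plain normexp the differences were -0.26, -0.93 and 0.67. The 2 dimmer probes, which share no 16-base run with the first, both stood at 0.04 for RFIneg against RFIpl. They stood at -0.22 and -0.08 for RFIplR against RFIpl, and at 0.27 and 0.12 for RFIneg against RFIplR. The dimmest probe is shown, with no capitals, to identify what was measured.
SLC2A4: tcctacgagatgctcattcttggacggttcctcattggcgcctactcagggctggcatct

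SLC2A1, the widespread basal glucose transporter, was dim and stood at -0.15 (-0.45 to 0.16), 0.02 and -0.17 in the 3 comparisons in the same order. The first of these was 0.12 after plain normexp. SLC2A3, the high-affinity form known from neurons, was dim as well and stood at -0.09, -0.39 (-0.93 to 0.14) and 0.30. After plain normexp its differences were 0.21, 0.66 and -0.45. Of 14 listed partners of glucose transport, 5 were measured and 0 passed. HK2, which phosphorylates glucose after entry, stood at 0.51 for RFIplR against RFIpl (p 0.0141, adjusted p 0.352) and at -0.49 for RFIneg against RFIplR (p 0.0208, adjusted p 0.399).

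In the other families, 37 of 52 genes were measured, with medians of 0.05, -0.0008 and 0.05. SLC8A1, a sodium-calcium exchanger, stood at -0.37 (-0.69 to -0.05; p 0.0244, adjusted p 0.414) for RFIplR against RFIpl, and at 0.50 after plain normexp. It ran from -3.56 to -2.39 in RFIneg (median -2.80), from -3.07 to -1.95 in RFIpl (-2.77) and from -3.31 to -2.83 in RFIplR (-3.04), so the groups overlapped at a low level. The scaffold genes SLC9A3R1 and SLC9A3R2 stood at -0.32 (-0.67 to 0.03) and -0.35 (-0.74 to 0.05) for RFIneg against RFIpl, and SLC9A3R2 at -0.40 (p 0.0494, adjusted p 0.489) for RFIneg against RFIplR. SLC12A4, a potassium-chloride cotransporter, stood at 0.27 (-0.04 to 0.57) for RFIplR against RFIpl and at -0.31 (-0.63 to 0.00) for RFIneg against RFIplR. SLC27A1, the fatty acid transport protein of muscle and fat, stood at 0.12 (-0.10 to 0.34), 0.08 and 0.04 in the 3 comparisons. The second of these was -0.26 after plain normexp. SLC11A2, which carries iron and other divalent metals, stood at 0.20 (-0.15 to 0.55), -0.03 and 0.22, the last 2 being 0.40 and -0.17 after plain normexp. SLC5A10, a sodium-coupled sugar carrier, stood at 0.50 (-0.14 to 1.14), 0.13 and 0.37, the second being -0.71 after plain normexp. For SLC5A10, RFIpl replicates 1, 4 and 5 were at 2.66, 2.72 and 2.55 and RFIplR replicates 4 and 8 at 2.15 and 2.38. All other pigs were at or above 3.58, so a few low pigs weighed on the high-RFI means. SLC9A2, a sodium-proton exchanger, stood at 0.25 (-0.04 to 0.55) for RFIplR against RFIpl on its brighter probe and at -0.34 (-0.62 to -0.06; p 0.0208, adjusted p 0.394) on its dimmer one. SLC35F3 stood at 0.55 (-0.07 to 1.17) for RFIneg against RFIpl, where 1 RFIpl pig was at -5.86 and the second probe stood at -0.02, and SLC6A17 at 0.53 (-0.03 to 1.10) for RFIneg against RFIplR, and at -0.44 after plain normexp.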

How the data were processed

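Deposited scanner files of 23 single-colour Agilent arrays (Feature Extraction 10.7.3.1, per the file headers) hold a background-corrected signal intensity per spot; R 2.10.0 appears in the submitters' processing notes. The deposited value table holds log2 processed signals with a constant subtracted per array (array medians at 0; the filter behind its probes is not given in the sources used here) and served as an alternative. Labelling used 150 ng of RNA.

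From these files, log2 processed signal minus the array's 75th percentile over non-control spots was computed, spots called non-uniform or population outliers were set missing, and spots of a probe were averaged. A probe was kept if 6 or more arrays of any group had it well above background (27785 of 43603; 1 member value was missing, and the fit used the other arrays). limma 3.58.1 in R 4.3.3 fitted 3 group means, with Benjamini-Hochberg adjustment over all kept probes and a threshold of 0.05; intervals are 95% and cover 1 probe at a time. Correlations were tested with 100000 permutations, two-sided. The number of arrays limits precision: on simulated data with 100 probes changed by 1 and 100 by 0.5, the RFIneg against RFIpl fit recovered 83 and 32, with 11 of 27126 unchanged probes called. The simulated noise was independent between probes and pigs and had no slide effects. In the real data only 34 probes passed in that comparison, and fewer passing probes make the Benjamini-Hochberg cutoff stricter. These shares are therefore not the recovery to be had in the real data.

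The named genes were the 10 with the smallest p in each comparison, the highest and lowest difference of each substrate group, and carriers of textbook role in muscle. Members and lists were chosen with earlier results of these data known. Of the 187 probes, 123 were designed on RefSeq, 39 on Ensembl and 25 on cDNA or EST sequences, and 128 further probes described as solute carriers without a symbol are no members. Genome positions are not used here. Of the genes meeting the rule, 3 are not reported here, and some members are counted but not described. The labels do not say whether replicate numbers pair pigs, and they were treated as names. Same-number correlations of deviations ran from -0.301 to 0.331. Their medians were 0.069, 0.132 and 0.040 in the 3 comparisons, against -0.017, -0.002 and -0.002 over pairs of any number. The same-numbered pig of the second group was the best match for 0 of 7, 4 of 8 and 1 of 7 pigs. A pairing within high RFI was therefore not excluded. The sources used here do not say whether pigs shared a litter. The limma p-values set a group difference against the spread between these pigs, which were taken as independent. Alternatives covered scaling, background, filters, variance, blocks for slide, scan day and replicate number, and single pigs left out.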

Additional observations from a re-analysis of the deposited data

Results flagged for a closer look

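Within groups, the gap test (Dixon's ratio of the gap to the range at 95%) was applied to 111 combinations of a named gene and a group, and 13 had an extreme pig, where chance gives about 1 in 20. The same pig stood apart for a pair of genes, since RFIplR replicate 8 was the lowest for SLC7A2 (1.69, next 2.39) and the highest for SLC1A5 (2.95, next 2.21). RFIpl replicate 3 was the highest of its group for SLC7A2 (3.50, next 2.70). Among the other amino acid carriers, RFIneg replicate 2 was the highest for SLC7A1 (1.52, next 0.53) and RFIpl replicate 2 the lowest for SLC38A4 (-2.01, next -1.17).

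RFIneg replicate 1 was the highest for SLC25A6 (6.56, next 6.32), RFIneg replicate 7 the lowest for SLC2A1 (-3.38, next -2.72) and RFIneg replicate 5 the lowest for SLC39A14 (6.60, next 6.85). In RFIpl, replicate 1 was the highest for SLC30A6 (-1.07, next -1.40), replicate 7 the lowest for SLC27A1 (1.10, next 1.33) and replicate 5 the lowest for SLC35F3 (-5.86, next -3.69). In RFIplR, replicate 7 was the highest for SLC6A17 (-2.75, next -4.03) and replicate 1 the lowest for SLC9A2 (-0.84, next -0.46).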

How the results depend on the processing

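The count of solute carrier genes past the threshold was 0 in the settings reported and became 1, always SLC7A2, under some alternatives. For RFIneg against RFIpl it was 1 with array weights (adjusted p 0.0348). For RFIneg against RFIplR it was 1 with quantile normalization (0.0444), only probes well above background on all arrays (0.0350), array weights (0.0197), trended robust variances (0.0311), a random slide effect (0.0395) and normexp on the negative controls (0.0291). In the F test it was 1 with probes above background on all arrays (0.0465), array weights (0.0192), trended robust variances (0.0431), a random slide effect (0.0453) and normexp on the negative controls (0.0472). Leaving out each pig in turn gave counts of 0 to 1 in these 3 tests and 0 for RFIplR against RFIpl. With the replicate block the counts were 0, and the smallest adjusted p were 0.235, 0.356 and 0.153 in the 3 comparisons. Whether same-numbered pigs were paired is not known. The difference of SLC7A2 for RFIneg against RFIpl stayed between 0.60 and 0.91 over all settings. Its adjusted p (limma) varied far more, and some alternatives moved it away from the threshold. Apart from leaving out a pig, they raised it to as much as 0.988 for RFIneg against RFIpl. For RFIneg against RFIplR it reached 0.506. In the F test the smallest adjusted p of any solute carrier gene reached 0.405.

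Plain normexp compressed 5 arrays (SD over probes of 1.03 to 2.62 over arrays, against 2.93 to 3.19 in the setting reported) and moved the median of all probes to 0.08, 0.21 and -0.14. Under it the median of all solute carriers was 0.25 for RFIplR against RFIpl and -0.14 for RFIneg against RFIplR, which is 0.04 and 0.0049 above the median of all probes. For these comparisons the SLC2 median was -0.16 and 0.18, the zinc median -0.0441 and -0.0262, and the SLC25 median -0.0575 for the first. SLC25A27 (0.43) and SLC8A1 (0.50) for RFIplR against RFIpl, and SLC25A3 (0.37) for RFIneg against RFIplR, which had an unadjusted p under 0.05, changed sign. The version of normexp that uses negative control spots was chosen after seeing the data; it gave SDs of 2.57 to 2.68 and none of these shifts of medians or signs. For RFIneg against RFIplR, the amino acid median was 0.11 with no filter, the SLC25 median -0.0416 with probes above background on all arrays, the SLC2 and zinc medians 0.14 and -0.0065 with the mean of a gene's probes, and the SLC16 median (3 genes) 0.12 without slide 3, also chosen after seeing the data; these change which probes, genes or arrays enter. Of 1737 values of single named genes under alternatives other than leaving out a pig, 44 moved by over 1 SD between pigs (under plain normexp or the mean of a gene's probes), 7 passed the threshold and 91 changed sign, 42 of them under plain normexp and 49 under the others. The size of the shift was judged only for values with an unadjusted p of 0.05 or more in the setting reported. The other values were judged by sign and threshold. Dim probes, such as those of SLC30A2 and SLC25A27, are limited by signal over background.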
